A study of Mus musculus with 30 samples.

Results

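Tm4sf4, Retreg1, Aadac, Fras1, Hook2 and Scd1 were read in mouse gut as a set of ileal genes whose reads were fewer in mice with microbes than in germ-free mice. They are 6 of the 24746 gene symbols counted, and they were chosen by name because earlier results of these same libraries had placed them lower in colonized than in germ-free ileum. Their colonized against germ-free values are therefore given below as a description, without a test. Tests are given for the contrasts between colonized groups, between ages, between treatments and between tissues. All animals were C3H/HeOuJ mice, an inbred strain, and each library came from RNA of whole tissue by a 3′ tag method, which counts a transcript by its 3′ end. In distal colon at 10 weeks of age, germ-free mice colonized in week 5 with a specific-pathogen-free microbiota (COL) and mice raised with that kind of microbiota (SPF) either drank 1.5% DSS (dextran sulfate sodium, which damages the lining of the colon) during 4 days followed by 2 days of water, or were left untreated. In ileum at 10 weeks and at 6 weeks of age, COL, SPF and germ-free (GF) mice were sampled without DSS. There were 30 libraries in 10 groups of 3, and no source used here says whether each is a mouse of its own. The p-values therefore measure the spread between these libraries, which may be technical.

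The ileum is the last stretch of the small intestine, and its epithelium absorbs fat, bile acids and vitamins while facing a dense microbiota. The set covers unrelated jobs of such cells. Scd1 is stearoyl-CoA desaturase, which makes oleate from stearate and is abundant in fat cells and liver. Aadac, arylacetamide deacetylase, is an esterase of the endoplasmic reticulum. Retreg1 (also called Fam134b) is a receptor that hands pieces of the endoplasmic reticulum to autophagosomes. Tm4sf4 is a membrane protein of the L6 family, which has 4 membrane-spanning stretches. Fras1 is a matrix protein of epithelial basement membranes, and Hook2 is an adaptor that ties cargo and the centrosome to microtubules. All 6 are protein-coding genes in the GENCODE vM21 annotation of build mm10. Tm4sf4 lies on chromosome 3 from 57425314 to 57441677 and Aadac on the same chromosome from 60025717 to 60040160. Fras1 lies on chromosome 5 from 96373955 to 96784728, Hook2 on chromosome 8 from 84990603 to 85003349, and Retreg1 on chromosome 15 from 25843180 to 25973687, each on the plus strand like Tm4sf4 and Aadac. Scd1 lies on the minus strand of chromosome 19 from 44394455 to 44407879. Exons of Fras1 overlap those of an antisense gene, Gm42604, and reads of the 2 genes cannot be told apart if the counting ignored strand, which is not given in the sources used here.

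Of the 6 members, 4 have a promoter in the RefSeq table of build GRCm38.p6 (mm10), namely Tm4sf4, Aadac, Hook2 and Retreg1, the last with 4 starts of which the first is shown. The stretches below show what lies before the RefSeq start of 3 members that were lower in colonized ileum at both ages and of Hook2, which was lower at 10 weeks only. For Aadac that start lies inside the gene as GENCODE draws it, so its stretch is within the gene span given above and not upstream of it. Each begins 250 bases before the RefSeq start and is printed on the plus strand, 5′ to 3′, up to the first base that GENCODE annotates as an exon. Capitals mark matches, on either strand, to a fixed set of 12 short motifs.
Tm4sf4, chr3:57425160-57425313: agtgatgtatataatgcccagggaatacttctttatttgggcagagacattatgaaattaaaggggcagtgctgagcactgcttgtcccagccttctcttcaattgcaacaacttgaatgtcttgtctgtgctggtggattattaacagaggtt
Aadac, chr3:60031538-60031760: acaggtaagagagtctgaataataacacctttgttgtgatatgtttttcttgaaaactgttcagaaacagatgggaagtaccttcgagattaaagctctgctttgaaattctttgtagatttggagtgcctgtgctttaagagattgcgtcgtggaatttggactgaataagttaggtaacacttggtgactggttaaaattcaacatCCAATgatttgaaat
Retreg1, chr15:25843048-25843179: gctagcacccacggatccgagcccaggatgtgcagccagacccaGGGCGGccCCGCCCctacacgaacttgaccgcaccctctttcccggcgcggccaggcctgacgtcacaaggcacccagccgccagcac
Hook2, chr8:84990373-84990602: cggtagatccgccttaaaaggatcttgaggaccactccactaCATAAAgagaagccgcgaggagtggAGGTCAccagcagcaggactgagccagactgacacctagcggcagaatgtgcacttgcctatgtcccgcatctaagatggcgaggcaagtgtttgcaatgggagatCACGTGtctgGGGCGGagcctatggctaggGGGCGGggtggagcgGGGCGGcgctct

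The 4 windows differed in base composition. Over the 250 bases before the start, G and C made up 36.4% for Aadac and 40.8% for Tm4sf4, against 60.4% for Hook2 and 76.4% for Retreg1. The GC box GGGCGG matched 3 times before Hook2, each on the plus strand, and 5 times before Retreg1, on both strands. The Retreg1 matches at bases -29 to -24, -21 to -16 and -17 to -12 lie past the printed stretch, the latter pair overlapping. The GC box was not found before Tm4sf4 or Aadac. It is present in 32.7% of all 32851 promoter windows of that length. The CCAAT box CCAAT matched once before Aadac, and once before Tm4sf4 at bases -96 to -92 from the start, past the printed stretch, and it is present in 33.8% of windows. TTTATG, which CDX factors of the gut bind, matched once before Tm4sf4 (bases -46 to -41, also past the printed stretch) and once before Hook2, and is present in 10.8% of windows. Hook2 also held the E-box CACGTG, present in 6.02% of windows, and the nuclear receptor half-site AGGTCA, present in 14% of windows. Such matches are descriptions of letters and say nothing of binding.

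Libraries held 3830539 to 6791455 reads in genes for colon and 2233837 to 9088573 for ileum, and levels below are CPM (the read count of a gene relative to the reads in genes of its library), TMM-scaled over the 30 libraries, with n = 3 libraries a group. The labels held up in their tissue markers, since the summed level of 6 distal ileum genes was 85.9 to 357 CPM in colon and 13060 to 38152 CPM in ileum. They held up in microbial status too: a list of 15 genes, written as raised in epithelium by bacteria, summed to 19704 to 163649 CPM in colonized ileum (COL and SPF) and 4787 to 8425 CPM in GF ileum. Reg3g and Reg3b made up most of that sum. Reg3g alone had 8367 to 92562 CPM in colonized and 1261 to 2539 CPM in GF ileum. Not each gene of the list was higher. Reg4 had group means of 83.7 to 201 CPM in colonized and 254 and 313 CPM in GF ileum, and Sprr2a1 had no reads. Several ileum libraries stood apart in ways the groups do not explain. SPF replicate 3 at 10 weeks was the shallowest library, and its smooth muscle markers summed to 240 CPM, against 1371 to 3730 CPM in the other ileum libraries. B cell follicle markers summed to 564 CPM in SPF replicate 1 at 10 weeks, 100 to 289 CPM in COL ileum at 10 weeks, 54.6 CPM and 75.9 CPM in the GF libraries numbered 1 at 10 and 6 weeks, and at most 8.09 CPM in every other ileum library. Some genes of fat cells, such as Adipoq, were high in some libraries and absent in others, which bears on Scd1 below.

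Tm4sf4 separated colonized from GF ileum in every library. At 10 weeks it had 30.8, 21.2 and 28.4 CPM in COL ileum, 63.8, 57.2 and 63.9 CPM in SPF ileum, and 122, 202 and 159 CPM in GF ileum. At 6 weeks it had 75, 66.3 and 62.3 CPM in COL ileum, 33.5, 41.1 and 52.1 CPM in SPF ileum, and 205, 195 and 209 CPM in GF ileum. All 12 colonized libraries lay below all 6 GF libraries, and COL and SPF changed places between the ages. The log2 fold change against GF ileum was -2.54 ± 0.20 (SE) for COL and -1.35 ± 0.19 for SPF at 10 weeks, and -1.59 ± 0.19 for COL and -2.25 ± 0.19 for SPF at 6 weeks. In colon Tm4sf4 was low, at 0.866 to 4.65 CPM across the 12 libraries.

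Retreg1 had 40.1, 34.4 and 34.7 CPM in COL ileum, 75.3, 44.6 and 36.5 CPM in SPF ileum, and 136, 139 and 159 CPM in GF ileum at 10 weeks. Its 6-week levels were 47.1, 24.6 and 44.4 CPM in COL ileum, 25.9, 25.1 and 24 CPM in SPF ileum, and 139, 128 and 155 CPM in GF ileum. Here too the 12 colonized libraries stayed below the 6 GF libraries, whose mean was 3.75 times that of the colonized ones. Against GF ileum its log2 fold change was -1.94 ± 0.23 for COL and -1.40 ± 0.23 for SPF at 10 weeks, and -1.87 ± 0.23 for COL and -2.48 ± 0.23 for SPF at 6 weeks. The highest colonized value, 75.3 CPM, belonged to the SPF library with the high B cell follicle sum.

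Aadac, measured on fewer reads, had 3.76, 3.05 and 5.08 CPM in COL ileum, 11.9, 7.67 and 4.99 CPM in SPF ileum, and 28.9, 33.5 and 30.5 CPM in GF ileum at 10 weeks. The 6-week values were 14.1, 11.6 and 8.85 CPM in COL ileum, 8.54, 6.22 and 10.6 CPM in SPF ileum, and 24.4, 20.6 and 25.2 CPM in GF ileum. No colonized library reached the lowest GF library. The log2 fold change against GF ileum was -2.92 ± 0.31 for COL and -1.80 ± 0.30 for SPF at 10 weeks, and -1.04 ± 0.29 for COL and -1.46 ± 0.29 for SPF at 6 weeks.

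Fras1 was the member with the lowest counts. It had 4.83, 1.52 and 1.93 CPM in COL ileum, 2.38, 3.11 and 0 CPM in SPF ileum, and 14.6, 12.7 and 15.6 CPM in GF ileum at 10 weeks, and the 0 stood in the shallowest library, where it allows up to 1.5 CPM (3 counts, counting error only). At 6 weeks it had 11.3, 9.5 and 4.83 CPM in COL ileum, 2.44, 2.46 and 4.46 CPM in SPF ileum, and 14.1, 20.1 and 18.9 CPM in GF ileum. Colonized and GF libraries did not overlap at either age, nor did COL and SPF libraries at 6 weeks, where COL was between the others. The nearest COL and SPF libraries then, at 4.83 and 4.46 CPM, each had 30 reads of Fras1, so that gap is within counting error. On the log2 scale the change against GF ileum was -2.32 ± 0.47 for COL and -2.69 ± 0.50 for SPF at 10 weeks, and -1.07 ± 0.43 for COL and -2.48 ± 0.46 for SPF at 6 weeks. Without COL replicate 1 the 10-week COL value of Fras1 was -3.01.

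Hook2 went with the set only at 10 weeks. It had 55.3, 51.2 and 58.9 CPM in COL ileum, 73.2, 82.3 and 91.4 CPM in SPF ileum, and 99.3, 106 and 121 CPM in GF ileum at that age, with no overlap between colonized and GF libraries. In 6-week-old mice Hook2 had 92.6, 91.5 and 93.3 CPM in COL ileum, 74.4, 69.8 and 63.5 CPM in SPF ileum, and 70.8, 85.2 and 76.8 CPM in GF ileum. COL ileum was then above GF ileum without overlap, as for 11.8% of genes, and SPF ileum overlapped GF ileum. The description of Hook2 as lower with microbes therefore does not hold at 6 weeks. Against GF ileum its log2 fold change was -0.94 ± 0.15 for COL and -0.38 ± 0.15 for SPF at 10 weeks, and 0.24 ± 0.15 for COL and -0.15 ± 0.15 for SPF at 6 weeks. Hook2 was also among the most even genes, with a biological coefficient of variation of 0.133 in ileum, against a median of 0.222 over 13233 genes.

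Scd1 varied most from library to library. At 10 weeks it had 19.9, 44.9 and 103 CPM in COL ileum, 65.1, 42.3 and 2 CPM in SPF ileum, and 27.2, 246 and 47.3 CPM in GF ileum. Colonized and GF libraries overlapped at that age, with 4 of 6 colonized libraries above the lowest GF library, so the description of Scd1 as lower with microbes does not hold for every library there. At 6 weeks it had 4.26, 36.2 and 1.45 CPM in COL ileum, 3.05, 4.66 and 5.36 CPM in SPF ileum, and 47.1, 304 and 226 CPM in GF ileum, with no overlap. The log2 fold change against GF ileum was -0.90 ± 1.13 for COL and -1.42 ± 1.15 for SPF at 10 weeks, and -3.84 ± 1.29 for COL and -5.44 ± 1.42 for SPF at 6 weeks. The sign at 10 weeks rests on GF replicate 2: without it the log2 fold change of Scd1 was 0.61 for COL and 0.08 for SPF. At 6 weeks the COL value was -6.14 without COL replicate 2, the COL library with Adipoq. Its biological coefficient of variation in ileum was 0.996, higher than that of 99.4% of genes.

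**Figure D1:**
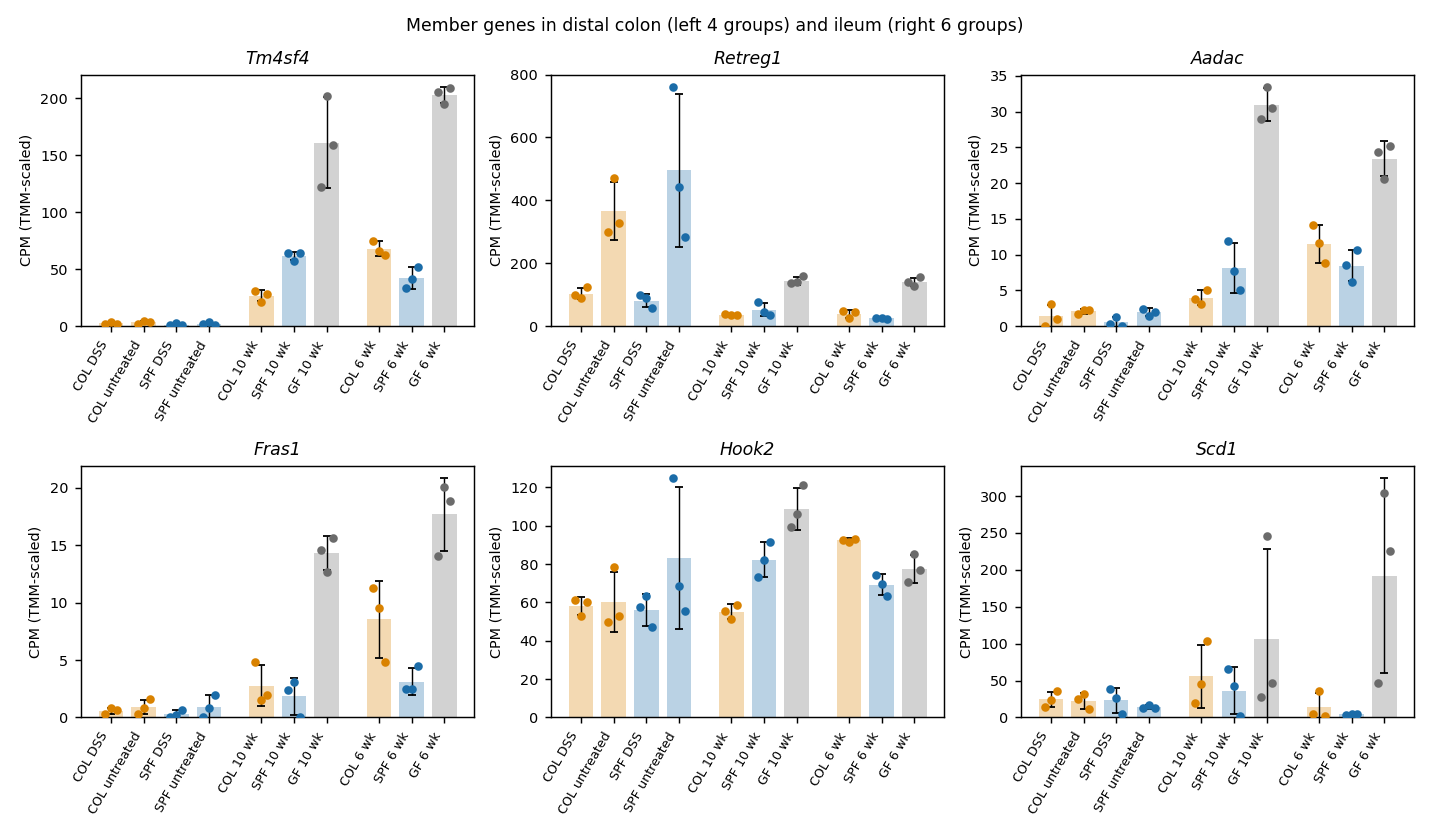
Level of each member in CPM in 3 libraries a group, with colon groups on the left and ileum groups on the right of each panel. Points are libraries, bars are group means and error bars are 1 SD. In Tm4sf4, Retreg1, Aadac and Fras1 the GF ileum libraries stand above every COL and SPF ileum library, whereas Hook2 at 6 weeks and Scd1 at 10 weeks overlap.

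Counted over the set, 5 of 6 members were lower than GF ileum without overlap in COL ileum at 10 weeks, 5 in SPF ileum at 10 weeks, 5 in COL ileum at 6 weeks and 5 in SPF ileum at 6 weeks, with Scd1 the exception at 10 weeks and Hook2 at 6 weeks. Of the 13233 genes tested, 15.7% were lower without overlap for COL and 11.6% for SPF at 10 weeks, and 10.9% for COL and 16.3% for SPF at 6 weeks. The median log2 fold change of the 6 members was -2.13 and -1.41 at 10 weeks for COL and SPF, and -1.33 and -2.37 at 6 weeks, beside medians between -0.02 and 0.02 over the genes tested. These contrasts are the ones that chose the members, so the counts describe the choice, and the comparisons share their GF libraries at each age.

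As a sum, markers of absorptive enterocytes were also lower on average in colonized ileum. Their sum over 15 genes was 9845 to 17703 CPM in colonized and 17905 to 21364 CPM in GF ileum at 10 weeks, a 1.45-fold higher mean in GF. At 6 weeks it was 11931 to 16598 CPM in colonized and 16258 to 20908 CPM in GF ileum, a 1.3-fold higher mean in GF with overlapping ranges. The sum does not show that each gene fell. Vil1, a gene of that list, overlapped at both ages. It had 968 to 1429 CPM in colonized and 1120 to 1282 CPM in GF ileum at 10 weeks. Its 6-week levels were 1040 to 1306 CPM in colonized and 1017 to 1084 CPM in GF ileum. The mean of GF ileum over that of colonized ileum was 3.64 for Tm4sf4, 3.26 for Retreg1, 5.1 for Aadac and 6.23 for Fras1 at 10 weeks, and 3.69, 4.42, 2.35 and 3.04 for these genes at 6 weeks. For Hook2 this ratio was 1.58 at 10 weeks, near that of the enterocyte sum, and 0.96 at 6 weeks, in the opposite direction, and for Scd1 it was 2.31 at 10 weeks and 21 at 6 weeks. Smooth muscle sums were lower too, at 240 to 2100 CPM in colonized and 2222 to 3413 CPM in GF ileum at 10 weeks, and 2141 to 2765 CPM in colonized and 2931 to 3730 CPM in GF ileum at 6 weeks. Goblet cell sums were lower without overlap at 6 weeks, at 16932 to 19575 CPM in colonized and 20953 to 22978 CPM in GF ileum. At 10 weeks they overlapped, at 12168 to 24578 CPM in colonized and 21496 to 24734 CPM in GF ileum. Paneth cell sums went the other way. They were 5345 to 16393 CPM in colonized and 4413 to 5656 CPM in GF ileum at 10 weeks, with overlap. At 6 weeks they were 11373 to 20409 CPM in colonized and 4420 to 5095 CPM in GF ileum. In whole tissue, fewer cells of a type and less RNA per cell cannot be told apart, and the part of cell composition in these values was not tested.

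Within most ileum groups the level of Scd1 followed fat cell genes such as Adipoq from library to library. Adipoq, which encodes the fat cell hormone adiponectin, had 18.4, 45.1 and 56.3 CPM in COL ileum, 35.3, 28.4 and 0 CPM in SPF ileum, and 0, 131 and 0 CPM in GF ileum at 10 weeks, in replicate order. At 6 weeks it had 0, 4.87 and 0 CPM in COL ileum, 1.68, 0 and 0.298 CPM in SPF ileum, and 0, 90.7 and 63.5 CPM in GF ileum. The GF libraries with the 3 highest Scd1 values were those with Adipoq, and the list of 10 adipose genes summed to 1069 to 1631 CPM in them and 205 to 221 CPM in the other 3 GF libraries. In colonized ileum the adipose list summed to 268 to 902 CPM at 10 weeks and 192 to 308 CPM at 6 weeks. Not each gene of that list followed Adipoq. Cidec had 51.5 to 73.3 CPM in COL ileum at 10 weeks, and 87.4 CPM in SPF replicate 3 at 10 weeks, where Adipoq had 0 CPM. In GF ileum Cidec had 105 to 190 CPM in the libraries with Adipoq and 53 to 57 CPM in the others. Car3, an abundant fat cell enzyme, followed Adipoq at 10 weeks. It had 15.7, 77.6 and 125 CPM in COL, 61.7, 41.1 and 0 CPM in SPF, and 0, 207 and 0 CPM in GF ileum. Plin1, which coats fat droplets, followed less closely. At 10 weeks it had 0.895 CPM in COL replicate 1 and 0.999 CPM in SPF replicate 3, where Adipoq had 18.4 and 0 CPM. A count of 0 in ileum allows up to 0.389 to 1.5 CPM, depending on the library (3 counts). At 10 weeks Plin1 had 0.895 to 13.7 CPM in COL ileum, 0.999 to 8.92 CPM in SPF ileum, and 0, 25.9 and 0 CPM in GF ileum.

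Among ileum libraries with under 2 CPM of Adipoq, a limit set after the values were seen, Scd1 ranged from 1.45 to 5.36 CPM in 6 colonized libraries and from 27.2 to 47.3 CPM in 3 GF libraries. Among those with more Adipoq, Scd1 ranged from 19.9 to 103 CPM in 6 colonized libraries and from 226 to 304 CPM in 3 GF libraries. Adipoq itself was not alike in the libraries with more of it, at 4.87 to 56.3 CPM in the colonized and 63.5 to 131 CPM in the GF ones. Ages were uneven too. Under the limit, the colonized libraries were from 6 weeks except SPF replicate 3 at 10 weeks. The GF ones were replicate 1 at 6 weeks and replicates 1 and 3 at 10 weeks. Over the limit, the colonized libraries were from 10 weeks except COL replicate 2 at 6 weeks. The GF ones were replicates 2 and 3 at 6 weeks and replicate 2 at 10 weeks. Status and age are therefore mixed in these ranges. The part of fat cells in the values of Scd1 was not tested. Scd2, the neighbouring desaturase gene, varied less: it had 132, 85.7 and 171 CPM in COL ileum, 230, 85.4 and 74.4 CPM in SPF ileum, and 258, 272 and 258 CPM in GF ileum at 10 weeks. At 6 weeks Scd2 had 93.9, 163 and 129 CPM in COL ileum, 148, 149 and 108 CPM in SPF ileum, and 409, 389 and 372 CPM in GF ileum. It was called lower at 6 weeks, by -1.61 ± 0.36 in COL and -1.52 ± 0.36 in SPF ileum (edgeR adjusted p = 0.017 and 0.016), and not at 10 weeks (-0.98 ± 0.36 and -0.95 ± 0.36, edgeR adjusted p = 0.11 and 0.15).

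**Figure D2:**
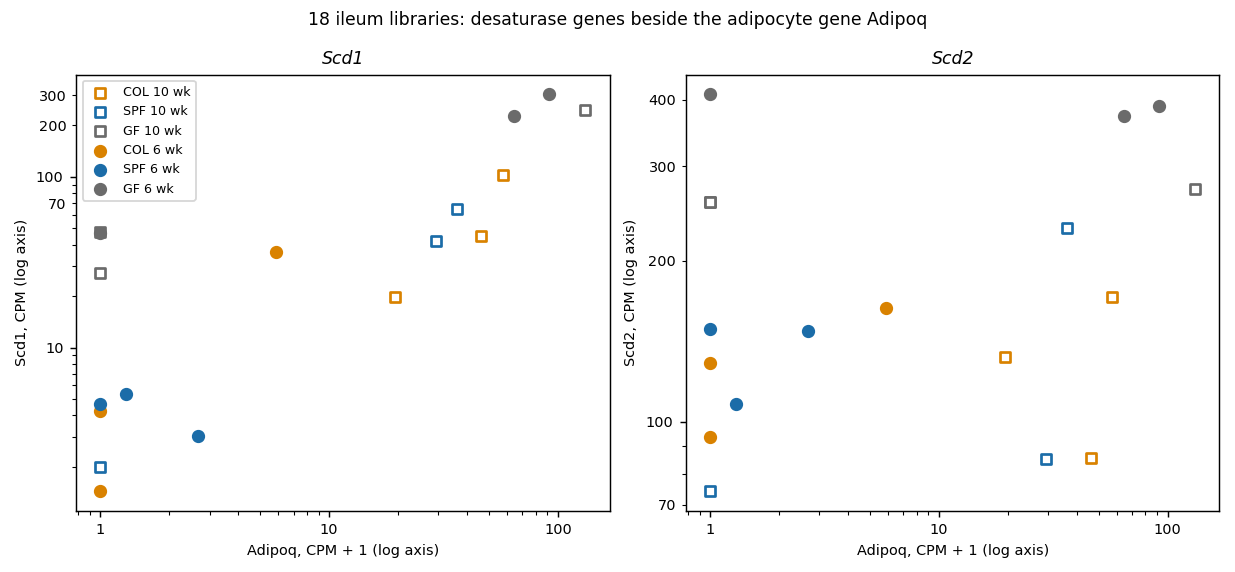
CPM of Scd1 (left) and Scd2 (right) against CPM + 1 of the fat cell gene Adipoq in the 18 ileum libraries, on log axes. Scd1 is high where Adipoq is high, and at the left edge, with Adipoq near 0, the GF libraries lie at 27.2 to 47.3 CPM of Scd1 above the COL and SPF libraries at 1.45 to 5.36 CPM. At that edge the COL and SPF libraries are from 6 weeks except SPF replicate 3 at 10 weeks, while the GF libraries are of both ages.

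COL and SPF mice carry the same kind of microbiota but acquired it at different ages, and the 2 groups differed in 1 member. At 10 weeks Tm4sf4 was lower in COL than in SPF ileum by a log2 fold change of -1.19 ± 0.20 (edgeR adjusted p = 0.011), with no overlap, and 3 of 13233 genes (0.0227%) were called lower. The call rests on COL replicate 2, the library with the lowest Tm4sf4: without it the log2 fold change was -1.05 with an edgeR adjusted p of 0.098, and a fit to these 6 libraries alone gave -1.19 with an edgeR adjusted p of 0.19. Hook2 was lower without overlap (-0.56 ± 0.15, edgeR adjusted p = 0.21), as 5.26% of genes were, and Aadac (-1.12 ± 0.32) and Retreg1 (-0.54 ± 0.23) overlapped. At 6 weeks the 6 members had positive differences between 0.40 and 1.59, none of them called, where 0.0982% of genes were called in either direction. The highest of these, that of Scd1, was -0.70 without COL replicate 2. The largest with no overlap were Fras1 (1.41 ± 0.47, edgeR adjusted p = 0.41), by a gap within counting error, and Tm4sf4 (0.66 ± 0.19, edgeR adjusted p = 0.26). Of all genes tested, 7.25% were higher without overlap there. These contrasts do not use GF libraries, but they share the COL and SPF libraries with the contrasts that chose the members.

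In COL ileum 3 of 6 members fell with age, being lower at 10 than at 6 weeks, where 0.914% of genes were called lower. Each age contrast shares its libraries with the contrasts that chose the members, so its tests are not independent of that choice. Hook2 in particular was lower than GF ileum without overlap only at 10 weeks. The log2 fold change with age was -1.29 ± 0.20 for Tm4sf4 (edgeR adjusted p = 6.2e-04), -1.48 ± 0.32 for Aadac (edgeR adjusted p = 0.013) and -0.70 ± 0.15 for Hook2 (edgeR adjusted p = 0.012), each without overlap. Of all genes tested, 11.5% were lower without overlap. Without COL replicate 2 at 10 weeks Aadac and Hook2 were no longer called (edgeR adjusted p = 0.077 and 0.066), and Hook2 was lost also without COL replicate 3 at 6 weeks (edgeR adjusted p = 0.054). Fras1 had -1.57 ± 0.48 with an edgeR adjusted p of 0.077, and was called without COL replicate 1 at 10 weeks (-2.25, edgeR adjusted p = 0.028). Sums of cell type markers also differed between the ages without overlap in COL ileum. The enterocyte sum was 9845 to 13771 CPM at 10 weeks and 14463 to 16598 CPM at 6 weeks, the distal ileum sum 13060 to 24356 CPM at 10 weeks and 30067 to 38152 CPM at 6 weeks, the goblet sum 12168 to 16161 CPM at 10 weeks and 17355 to 19575 CPM at 6 weeks, and the Paneth cell sum 7407 to 8128 CPM at 10 weeks and 16834 to 20409 CPM at 6 weeks. Not each gene of these lists differed, and Fabp6 made up most of the distal ileum sum. Slc10a2 of the distal ileum list overlapped, at 244 to 384 CPM at 10 weeks and 253 to 337 CPM at 6 weeks. Vil1 of the enterocyte list overlapped too, at 968 to 1367 CPM at 10 weeks and 1068 to 1306 CPM at 6 weeks. Sums of B cell follicle genes were higher, at 100 to 289 CPM at 10 weeks and 0.805 to 1.62 CPM at 6 weeks. The part of these marker sums in the fall of Tm4sf4, Aadac and Hook2 was not tested. Retreg1 had -0.04 ± 0.23 with age. Scd1 had 2.10 ± 1.25, beside Adipoq at 18.4 to 56.3 CPM at 10 weeks and 0 to 4.87 CPM at 6 weeks.

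In SPF ileum 1 member was called, in the other direction. Retreg1 was higher at 10 than at 6 weeks by 1.11 ± 0.23 (edgeR adjusted p = 0.021), without overlap, where 0.574% of genes were called higher. That call was lost without SPF replicate 1 at 10 weeks (0.70, edgeR adjusted p = 0.11), the library with the high B cell follicle sum, and without SPF replicate 1 or 2 at 6 weeks (edgeR adjusted p = 0.12 and 0.14). Tm4sf4 was higher by 0.56 ± 0.19 without overlap (edgeR adjusted p = 0.12), as 9.91% of genes were, and Aadac, Fras1, Hook2 and Scd1 overlapped. In GF ileum no member was called, and 0.0302% of genes were called in either direction. Hook2 (0.48 ± 0.15) and Aadac (0.40 ± 0.27) had higher values at 10 weeks there without overlap (edgeR adjusted p = 1 for both), as 6.77% of genes had.

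The age effects themselves were compared between COL and SPF ileum, a test added after the data were seen. Its libraries are also among those that chose the members. The age effect of Tm4sf4 was lower in COL than in SPF ileum by -1.85 ± 0.28 (edgeR adjusted p = 0.0011), where 0.0907% of genes were called lower, and it was called in each of 17 alternatives. The difference was -0.96 ± 0.21 for Hook2 (edgeR adjusted p = 0.061), -1.54 ± 0.44 for Aadac (edgeR adjusted p = 0.18) and -1.16 ± 0.33 for Retreg1 (edgeR adjusted p = 0.17). It was -1.05 ± 0.71 for Fras1 and -1.08 ± 1.83 for Scd1, neither called, and that of Scd1 was 1.22 without COL replicate 2 at 6 weeks.

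**Figure D3:**
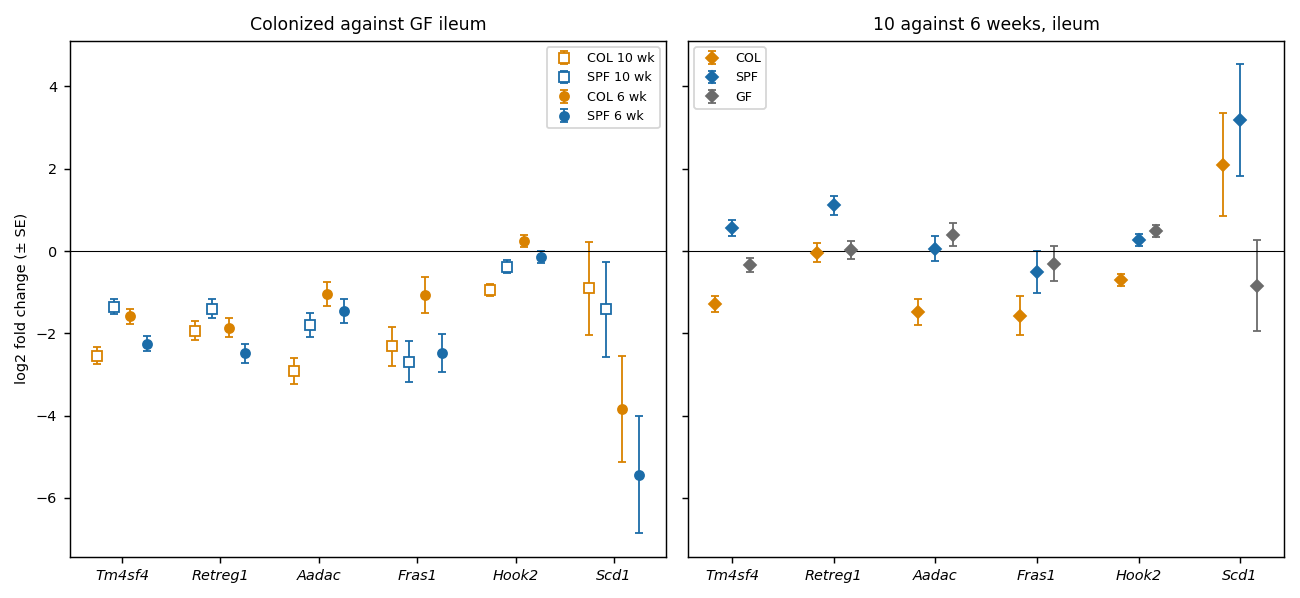
Log2 fold change of each member, with error bars of 1 SE, for colonized against GF ileum (left) and for 10 against 6 weeks within each status (right). On the right, Tm4sf4, Aadac and Hook2 lie below 0 in COL ileum, at -1.29, -1.48 and -0.70, and none of the 3 was called in SPF or GF ileum.

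Across tissues the members divided again. In untreated mice at 10 weeks, 2 of 6 members were called between colon and ileum of COL mice, where 26.2% of genes were called in either direction, and 3 of 6 in SPF mice, where 32.5% were called. Tm4sf4 was lower in colon by -3.04 ± 0.31 in COL mice (edgeR adjusted p = 2.4e-09) and by -4.78 ± 0.34 in SPF mice (edgeR adjusted p = 5.1e-13). Aadac was lower in colon in SPF mice (-2.12 ± 0.55, edgeR adjusted p = 0.003) and had -0.94 ± 0.54 in COL mice (edgeR adjusted p = 0.21). Retreg1 went the other way and was higher in colon by 3.32 ± 0.30 in COL mice (edgeR adjusted p = 3.0e-10) and by 3.23 ± 0.30 in SPF mice (edgeR adjusted p = 4.6e-10). Tissue, dissection and library batch cannot be told apart in this contrast.

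Retreg1 was the member that changed in the injured colon. It had 97.6, 90.4 and 123 CPM in COL colon after DSS, against 298, 470 and 327 CPM in untreated COL colon. In SPF colon it had 97.7, 89.5 and 57.6 CPM after DSS, against 762, 443 and 284 CPM in untreated mice. All 6 DSS libraries lay below all 6 untreated libraries. The log2 fold change of Retreg1 with DSS was -1.81 ± 0.32 in COL colon (edgeR adjusted p = 0.0031), where 3% of genes were called lower, and -2.60 ± 0.33 in SPF colon (edgeR adjusted p = 1.8e-04), where 11.9% were called lower. It was the only called member of the 5 that passed the filter on low counts in colon, which Fras1 did not, at 0 to 1.97 CPM. Neither call was lost in the alternatives run.

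The difference between the DSS effects in COL and SPF colon was 0.79 ± 0.45 for Retreg1 (edgeR adjusted p = 0.64), and no gene of 12855 was called for it by edgeR (0%), with 1122 genes at an unadjusted p under 0.05 and 9 called by DESeq2. Goblet cell markers moved with Retreg1, since the sum of 9 genes was 8159 to 11031 CPM after DSS and 15151 to 16505 CPM untreated in COL colon, and 1504 to 9194 CPM after DSS and 16631 to 21609 CPM untreated in SPF colon. Smooth muscle markers were lower after DSS too, at 1194 to 4099 CPM against 4446 to 4658 CPM untreated in COL colon, and at 912 to 2764 CPM against 4844 to 5872 CPM untreated in SPF colon. Colonocyte markers were 7257 to 10043 CPM after DSS and 11154 to 12631 CPM untreated in COL colon, and 4553 to 10076 CPM after DSS and 11006 to 14462 CPM untreated in SPF colon. Fibroblast markers were 825 to 1037 CPM after DSS and 1326 to 1425 CPM untreated in COL colon, and 621 to 797 CPM after DSS and 1433 to 1972 CPM untreated in SPF colon. The sum of Paneth cell genes was higher, at 2014 to 3106 CPM after DSS and 154 to 196 CPM untreated in COL colon, and 1871 to 2862 CPM after DSS and 232 to 529 CPM untreated in SPF colon. It was not a rise of each gene: the defensin genes Defa24, Defa17 and Defa30 had no reads in either DSS group. In untreated colon only Defa30 had none, in SPF mice. The part of any of these marker sums in the change of Retreg1 was not tested.

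**Figure D4:**
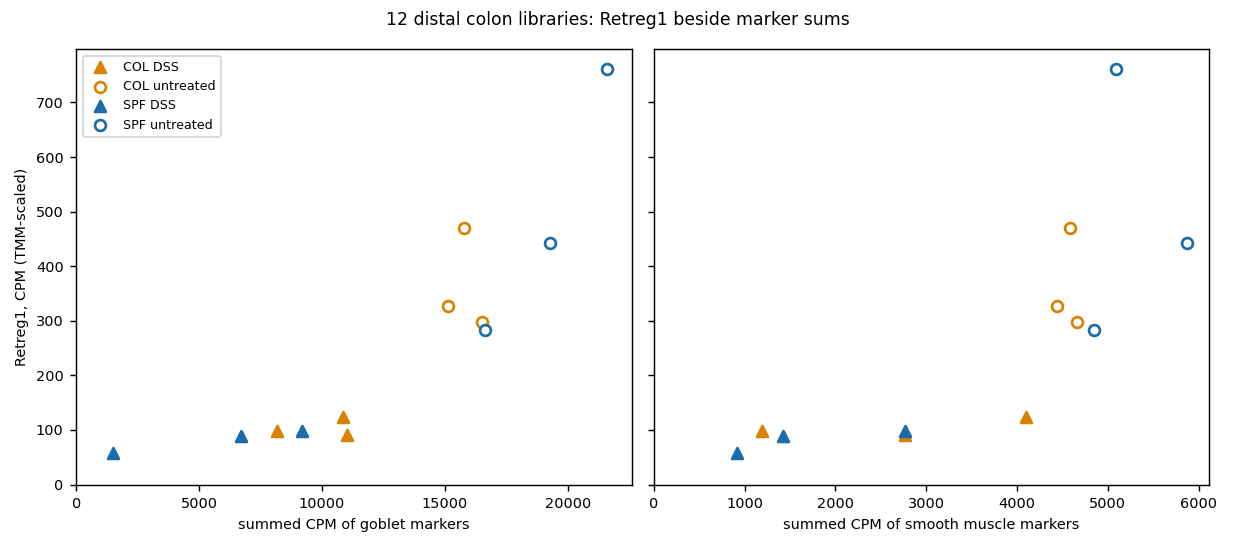
CPM of Retreg1 in the 12 distal colon libraries against the summed CPM of 9 goblet cell genes (left) and 8 smooth muscle genes (right). The DSS libraries, as triangles, lie at 57.6 to 123 CPM of Retreg1 below the untreated libraries, as circles, at 284 to 762 CPM, and have lower sums of both marker lists.

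The other members in colon did not pass the test. Aadac had 0.347, 1.29 and 0 CPM in SPF colon after DSS and 2.47, 1.44 and 1.97 CPM in untreated SPF colon, lower without overlap, as 17.1% of genes were there, but not called (-1.74 ± 1.01, edgeR adjusted p = 0.22). It overlapped in COL colon (-0.59 ± 0.89, edgeR adjusted p = 0.74), with a value of 0.07 without COL replicate 1 after DSS. Tm4sf4 overlapped in both, at -0.40 ± 0.57 in COL and -0.66 ± 0.63 in SPF colon. Hook2 had 61.5, 52.8 and 60.2 CPM in COL colon after DSS and 49.8, 78.4 and 52.9 CPM in untreated COL colon, and 57.7, 63.6 and 47.3 CPM in SPF colon after DSS and 125, 68.7 and 55.5 CPM in untreated SPF colon (edgeR adjusted p = 0.94 and 0.16). Scd1 had 14.4 to 35.3 CPM in COL colon after DSS and 10.9 to 32.4 CPM in untreated COL colon, and 5.36 to 38.8 CPM in SPF colon after DSS and 12.2 to 17.3 CPM in untreated SPF colon. Between COL and SPF colon no member was called, either after DSS or untreated, where 0.00778% of genes were called in either direction after DSS and 0% untreated. For the untreated groups 988 genes had an unadjusted edgeR p under 0.05, and DESeq2 called 27.

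Over the 10 groups, the order of the means differed between members. For Tm4sf4 it ran from GF ileum at 6 weeks (203 ± 7.29 CPM, SD) and 10 weeks (161 ± 39.9) through COL ileum at 6 weeks (67.8 ± 6.48), SPF ileum at 10 weeks (61.7 ± 3.83) and 6 weeks (42.2 ± 9.32) and COL ileum at 10 weeks (26.8 ± 5) to the 4 colon groups (1.39 to 3.26). The ranges of GF ileum at 6 and 10 weeks overlapped, as did those of COL ileum at 6 weeks and SPF ileum at 10 weeks, and those of neighbours among the colon groups. For Aadac the order was GF ileum at 10 weeks (31 ± 2.35) and 6 weeks (23.4 ± 2.5), COL ileum at 6 weeks (11.5 ± 2.6), SPF ileum at 6 weeks (8.44 ± 2.17) and 10 weeks (8.19 ± 3.48), COL ileum at 10 weeks (3.96 ± 1.03) and colon (0.547 to 2.06). Its neighbours overlapped from COL ileum at 6 weeks down to COL ileum at 10 weeks and within colon. For Fras1 it was GF ileum at 6 weeks (17.7 ± 3.18) and 10 weeks (14.3 ± 1.47), COL ileum at 6 weeks (8.54 ± 3.34), then SPF ileum at 6 weeks (3.12 ± 1.16), COL ileum (2.76 ± 1.8) and SPF ileum (1.83 ± 1.63) at 10 weeks, and colon (0.285 to 0.931). GF ileum at the 2 ages overlapped, and so did each neighbouring pair from SPF ileum at 6 weeks downward.

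Retreg1 was highest in untreated colon, SPF (496 ± 244) then COL (365 ± 92.5), followed by GF ileum at 10 weeks (144 ± 12.5) and 6 weeks (141 ± 13.2), COL and SPF colon after DSS (104 ± 17.2 and 81.6 ± 21.2), SPF ileum at 10 weeks (52.1 ± 20.5), COL ileum at 6 weeks (38.7 ± 12.3) and 10 weeks (36.4 ± 3.2), and SPF ileum at 6 weeks (25 ± 0.986). Its breaks without overlap lay below untreated colon, below GF ileum and above SPF ileum at 6 weeks. Hook2 spanned 1.97-fold, the least of the set, between GF ileum at 10 weeks (109 ± 11.4) and COL ileum at 10 weeks (55.1 ± 3.87), and each neighbour in its order overlapped except the first pair. Scd1 ran from GF ileum at 6 weeks (192 ± 132) to SPF ileum at 6 weeks (4.36 ± 1.18), and each of its 9 neighbouring pairs overlapped.

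By the distance between log2 group means, centred on each gene, over the 10 groups (root mean square), the genes most like each member were sought among 8905 genes with a mean log2 CPM of at least 3. Tm4sf4 was nearest Acaa1b, a peroxisomal thiolase (0.42), and Arg2, mitochondrial arginase (0.43). Aadac was nearest Ppara, a nuclear receptor for fatty acids (0.39), and Bche, butyrylcholinesterase (0.43), and Fras1 was nearest Cat, catalase (0.70), and Ehhadh, a peroxisomal enzyme (0.75). Ppara averaged 79.4 CPM in COL, 110 CPM in SPF and 224 CPM in GF ileum at 10 weeks, and 96, 66.4 and 222 CPM in COL, SPF and GF ileum at 6 weeks. Retreg1 was nearest Reg4, a secreted lectin (0.45), and Cyp2c68, a cytochrome P450 (0.46), Hook2 nearest Sbf2 (0.14) and Samd10 (0.14), and Scd1 nearest Fabp4, a fat cell fatty acid binding protein (0.79), and Acot1, an acyl-CoA thioesterase (0.92). Hook2 itself varied little over the groups (root mean square 0.32, against 2.54 for Tm4sf4). Its median distance to the 8905 genes was 0.45, against 2.55 for Tm4sf4. The groups include 4 of colon, so differences between tissues also enter the distances. Within the set the closest pair was Aadac and Fras1 (0.61), and Tm4sf4 and Retreg1 were the farthest apart (3.32).

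Genes related to each member were read from lists written for this work with earlier results known. Over the 13233 genes tested, 9.14% were called in either direction for COL and 6.2% for SPF against GF ileum at 10 weeks, and 4.64% for COL and 7.69% for SPF at 6 weeks. Among 18 tested esterases and lipases, relatives of Aadac in function, 1 was called higher and 4 lower in COL against GF ileum at 10 weeks (median -0.37), 1 higher and 2 lower in SPF at 10 weeks (-0.28), 0 higher and 5 lower in COL at 6 weeks (-0.33), and 1 higher and 5 lower in SPF at 6 weeks (-0.38). Nceh1, a paralog of Aadac that hydrolyses cholesterol esters, fell in each: its log2 fold change was -1.84 ± 0.20 in COL and -1.52 ± 0.20 in SPF ileum at 10 weeks (edgeR adjusted p = 8.1e-07 and 2.1e-05), and -1.32 ± 0.20 in COL and -1.40 ± 0.20 in SPF ileum at 6 weeks (edgeR adjusted p = 1.6e-04 and 3.9e-05). It averaged 41.1 and 50.5 CPM in COL and SPF ileum and 151 CPM in GF ileum at 10 weeks. Ces1g, a carboxylesterase, was also called lower in each of the 4, with log2 fold changes of -2.54 to -1.33, though its call for SPF at 10 weeks (-1.33 ± 0.39, edgeR adjusted p = 0.043) was lost without SPF replicate 1 or 2, or without any 1 of the GF libraries (edgeR adjusted p = 0.061 to 0.17). Ces2a was the gene called higher, by 1.66 ± 0.28 in COL ileum at 10 weeks (edgeR adjusted p = 6.5e-04).

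Around Scd1, 22 fatty acid synthesis and desaturation genes were tested, and those called were all lower in colonized ileum: 3 and 1 in COL and SPF at 10 weeks (medians -0.26 and -0.36), and 2 and 4 at 6 weeks (medians -0.33 and -0.46). Mlxipl, a glucose-responsive activator of lipid synthesis genes, was lower at 10 weeks, at -1.01 ± 0.22 in COL (edgeR adjusted p = 0.0034) and -0.74 ± 0.22 in SPF ileum (edgeR adjusted p = 0.042). In colon Scd2 was higher after DSS, by 1.43 ± 0.30 in COL (edgeR adjusted p = 0.0091) and 1.36 ± 0.30 in SPF mice (edgeR adjusted p = 0.0048), where Scd1 had 0.11 ± 0.54 and 0.74 ± 0.56. Scd3 and Scd4 were at or near 0 in these libraries. Medians over the genes tested lay between -0.02 and 0.02 in the ileum contrasts with GF.

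For Retreg1, 23 ER-phagy and autophagosome genes were tested. In ileum 1 was called higher and 3 lower in COL at 10 weeks, 1 lower in SPF at 10 weeks, 1 lower in COL and 2 lower in SPF at 6 weeks, with medians of -0.11, -0.05, -0.02 and -0.18 against GF. Its closest relatives were not called in ileum: Retreg2 had -0.54 ± 0.20 in both COL and SPF at 10 weeks (edgeR adjusted p = 0.09 and 0.11), and Retreg3 had -0.21 ± 0.29 and -0.19 ± 0.29. In colon 5 were called lower with DSS in COL and 5 in SPF mice, and 0 higher (medians -0.32 and -0.33), where 3% of all genes were called lower in COL and 11.9% in SPF colon. Gabarapl1, an ATG8 protein that such receptors bind, had -1.02 ± 0.26 in COL and -1.03 ± 0.26 in SPF colon (edgeR adjusted p = 0.026 and 0.011), and Map1lc3a, another, had -1.32 ± 0.28 in COL and -0.85 ± 0.28 in SPF colon (edgeR adjusted p = 0.0094 and 0.035).

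Relatives of the other members were mixed. Of 3 L6 family genes tested beside Tm4sf4, Tm4sf5 was lower in COL against GF ileum at 10 weeks (-1.03 ± 0.19, edgeR adjusted p = 8.7e-04), and Tm4sf20 was higher at 6 weeks by 0.83 ± 0.23 in COL and 0.97 ± 0.23 in SPF ileum (edgeR adjusted p = 0.038 and 0.0094). Of 20 Fraser complex and basement membrane genes, Lamb3, a laminin chain, was the 1 called lower in each contrast with GF, at -1.14 ± 0.25 in COL and -1.10 ± 0.26 in SPF at 10 weeks (edgeR adjusted p = 0.0039 and 0.0087), and -1.35 ± 0.25 in COL and -2.20 ± 0.26 in SPF at 6 weeks (edgeR adjusted p = 0.0014 and 3.4e-06). Itga6, an integrin chain, was higher at 6 weeks by 0.71 ± 0.17 in COL and 0.73 ± 0.17 in SPF ileum (edgeR adjusted p = 0.01 and 0.0057), and Frem2, a partner of Fras1, was not called against GF ileum. Of 23 Hook and dynein adaptor genes, 0 or 1 was called in each direction in each contrast, and Hook1 and Hook3 were not called, with differences of -0.15 to 0.26 from GF ileum.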

How the data were processed

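RNA of 30 mouse gut libraries was read as 3′ tags, and the authors deposited raw read counts per gene symbol, 1 table a library. Per the submitters' processing notes, Trimmomatic 0.36, FastQC 0.11.5, STAR 2.5.3a, HTSeq and build mm10 were used; the strand setting and annotation are not given in the sources used here. Each table's 5 summary lines were left out; 28% to 36.9% of the reads listed were not uniquely placed. From these counts, edgeR 4.0.16 (R 4.3.3; TMM scaling, filterByExpr, quasi-likelihood test, Benjamini-Hochberg adjusted p under 0.05 called) was fitted to 18 ileum libraries (13233 genes), 12 colon libraries (12855 genes) and, between tissues, all 30 (13807 genes). The code was tested on simulated data. The filter kept 6 of 6 members in ileum and 5 of 6 in colon. Likeness used log2 CPM with a prior count of 2.

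The members and gene lists were chosen with earlier results of these data known. Named were the members, their 2 likest genes, their paralogs and, per list, up to 4 called genes of smallest p. Promoters are from RefSeq (GRCm38.p6) and gene positions from GENCODE vM21. Replicate pairs within groups differed by more than counting noise (chi-square per degree of freedom 5.46 to 52.2). Same-numbered libraries deviated together, with every correlation over 0.1, in 1 comparison, that of SPF with GF at 10 weeks in ileum (0.25, 0.19 and 0.16), a pairing read from the data. Alternatives were DESeq2 1.42.0, no filter, DESeq2's scaling, only the libraries compared, a replicate block, leaving out each library, and leaving out both GF ileum libraries numbered 1. The comparison of age effects and the Adipoq limit were added after the data were seen.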

Additional observations from a re-analysis of the deposited data

Results flagged for a closer look

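The effect of age differed between groups for Tm4sf4. It was -1.29 (log2, 10 against 6 weeks) in COL ileum and 0.56 in SPF ileum, with no overlap of the ages in either group, and the difference of -1.85 passed the test (edgeR adjusted p = 0.0011). That test was added after the data were seen. Its COL and SPF libraries also took part in choosing the members, so it is not independent of that choice. Aadac had -1.48 in COL ileum and 0.40 in GF ileum, and Hook2 had -0.70 in COL ileum and 0.48 in GF ileum, each with no overlap of the ages. The COL values were called and the GF values were not. Of all genes tested, 11.5% were lower at 10 weeks without overlap in COL ileum and 6.77% were higher without overlap in GF ileum. Those differences between COL and GF ileum were not tested, since they rest on the contrasts that chose the members.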

How the results depend on the processing

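No called value changed direction, but the log2 fold change of Scd1 at 10 weeks, which has no test, was -1.69 to 0.61 for COL and -2.12 to 0.08 for SPF on leaving out 1 library, positive without GF replicate 2. Against GF ileum the median of the members kept its sign in every alternative: leaving out 1 library gave -2.36 to -1.99 for COL and -1.97 to -1.29 for SPF at 10 weeks, and -1.5 to -1.2 for COL and -2.45 to -2.22 for SPF at 6 weeks. With the replicate block the medians were -2.16 and -1.39 for COL and SPF at 10 weeks, and -1.35 and -2.37 at 6 weeks, and the block changed no member's call. Between COL and SPF ileum at 10 weeks the 1 member called became 2 with DESeq2 (Hook2, DESeq2 adjusted p = 0.031), 0 with only the libraries compared, and 0 to 1 on leaving out 1 library. For age in COL ileum the 3 called members became 1 to 4 on leaving out 1 library. For age in SPF ileum the 1 called member became 0 with only the libraries compared and 0 to 1 on leaving out 1 library. For the difference of age effects the 1 called member became 2 with DESeq2 (Hook2) and 1 to 2 on leaving out 1 library, and for DSS in SPF colon 1 became 1 to 2. The cause was not tested.

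Counts of called genes moved with the tool, the libraries fitted and single libraries. With DESeq2, 64, 46, 10, 703, 573 and 114 genes were called for COL against SPF ileum at 6 weeks, at 10 weeks, and for age in GF, COL and SPF ileum and its COL minus SPF difference, beside 13, 12, 4, 335, 181 and 22 with edgeR. With only the libraries compared the counts were 66, 4 and 29 for COL against SPF ileum at 6 and 10 weeks and for age in SPF ileum, 1604 (beside 1018) for SPF and GF ileum at 6 weeks, 502 (beside 821) for SPF and GF ileum at 10 weeks, and 1728 (beside 3097) and 1839 (beside 918) for DSS in SPF and COL colon. Leaving out 1 library gave 5 to 97 genes for COL against SPF ileum at 10 weeks, 54 to 320 for age in COL ileum, 0 to 416 for age in SPF ileum, 9 to 168 for its COL minus SPF difference, 376 to 602 for DSS in COL colon and 1915 to 3409 for DSS in SPF colon, beside 12, 335, 181, 22, 918 and 3097 with all libraries. Low counts limit Fras1 and, in colon, Aadac and Tm4sf4.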
